A study of Homo sapiens with 4 samples.

Results

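The genes described here encode the proteins of the mitochondrial ribosome. They were taken as every row of the expression table whose symbol is MRPL or MRPS followed by a number and, for paralogs, a letter from A to C. The rule found 73 genes of 18840, 46 with MRPL symbols and 27 with MRPS symbols. By their place in the ribosome, 48 belong to the large subunit, counting MRPS30 and MRPS18A, whose products sit there in spite of their names. Another 24 belong to the small subunit. MRPS36 was kept apart because its product is now placed in the 2-oxoglutarate dehydrogenase complex. The 73 genes lie on 21 chromosomes, so no single locus holds them all. Ribosomal proteins of this organelle that carry other symbols are described as a separate list further on, and those outside the table were not analysed here.

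Mitochondria keep their own ribosomes, which translate only the few proteins written in mitochondrial DNA, all of them core subunits of the respiratory chain and ATP synthase. Every protein of these ribosomes is encoded in the nucleus, made in the cytosol and imported, and is then assembled with ribosomal RNA transcribed inside the organelle. Some of the proteins descend from bacterial ribosomal proteins and others were acquired by mitochondria. Of the members, 45 have a bacterial homologue and 27 are specific to mitochondrial ribosomes, with MRPS36 in neither class. MYC is known as an activator of genes for mitochondrial and cytosolic ribosomes, and the ETS factor GABP, NRF1 and YY1 are known regulators of nuclear genes for mitochondrial proteins.

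The cells were MCF10A, a human mammary epithelial line that grows without limit but forms no tumours, stably transduced with a pBabe retrovirus. The empty vector and a GFP construct served as controls, and the other cultures carried miR-105, a microRNA, or MYC. All grew in the same medium, which held EGF, insulin, hydrocortisone, cholera toxin and horse serum, and poly(A) RNA was sequenced from 1 library per construct. No spread between cultures can therefore be estimated, and every interval below is an exact 95% interval that covers counting error only.

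The libraries held between 6859698 (miR-105) and 14025115 (GFP) reads in genes. Levels are given in CPM, counts per 1000000 reads after TMM scaling, and 1 read was worth between 0.0722 and 0.157 CPM. MYC mRNA was at 207 CPM with empty vector, 198 with GFP and 463 with miR-105. The library labelled MYC held 232 CPM, so this level does not set it apart from the controls, and it is named by its label below. The mature microRNA was not analysed here, so the label of the miR-105 library has no check of its own, and a direction given for miR-105 is that of the library so labelled. All 11 epithelial and basal markers were detected in every library. Of these, 4 were higher and 3 lower than both controls by 1.5-fold in miR-105 (24% and 24.7% of all genes), and 3 were higher and 6 lower in the library labelled MYC (16.6% and 17.2%). Summed over the 11, they ranged from 9651 CPM in the library labelled MYC to 15549 with vector. Of 13 markers of fibroblasts, immune cells and endothelium, collagen COL3A1 had 0 reads everywhere and the leukocyte marker PTPRC had 0 in 3 of the 4 libraries, while FAP (2.56 to 126 CPM), CSF1R (9.86 to 75.1) and KDR (1.73 to 88.9) were detected and differed between libraries. Summed over each list, fibroblast markers ranged from 20 to 141 CPM, immune markers from 18 to 89 and endothelial markers from 4 to 92, lowest in the library labelled MYC for the first 2 lists and with miR-105 for the third. Their part in the results below was not tested.

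All 73 genes passed the filter of a mean of at least 1 CPM, as did 12484 genes in all. No member had 0 reads in any library, and the lowest count was 98 reads, for MRPL55 in the miR-105 library. The median level of the members was 33.5 CPM with vector, 25.3 with GFP, 54 with miR-105 and 44.1 in that labelled MYC. Summed over the 73 genes, the share of all reads was 0.302% with vector, 0.212% with GFP, 0.433% with miR-105 and 0.386% in that labelled MYC. The miR-105 library was the highest of the 4 for 53 members (35.8% of all genes tested), the library labelled MYC for 15 (25.3%), vector for 5 (17.7%) and GFP for none (21.3%). The GFP library was the lowest for 68 members (19.4% of all genes tested), miR-105 for 3 (32.9%), and vector and the library labelled MYC for 1 each (22% and 25.7%). In a bulk sample, a change in the mix of cells and a change of RNA per cell cannot be told apart.

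**Figure D1:**
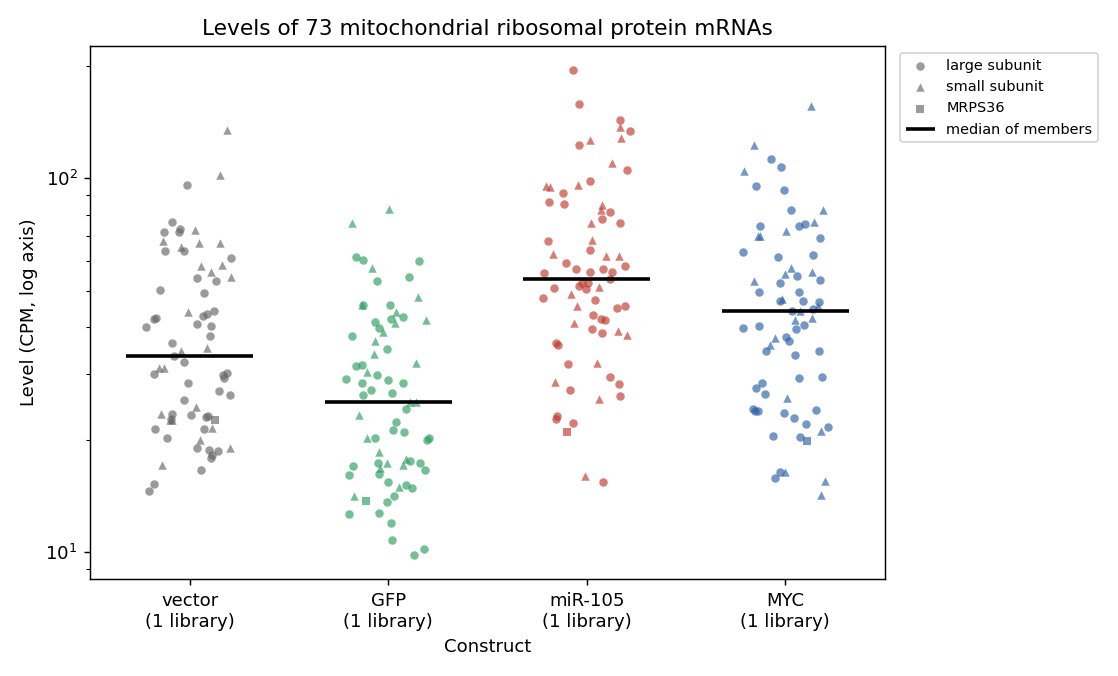
Level of each of the 73 mRNAs (CPM, log axis) in the 4 libraries, 1 library per construct; circles are large-subunit genes, triangles small-subunit genes, the square MRPS36, and the bar the median of the members. The medians are 33.5, 25.3, 54 and 44.1 CPM from left to right, and the single levels run from 9.82 CPM in GFP to 195 CPM in miR-105.

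Compared per kilobase of transcript, the members differed widely in level. MRPS24, a small-subunit protein at the mRNA entrance, was the highest at a mean of 151 CPM per kb over the 4 libraries, followed by MRPL33 at 108, MRPS34 at 76.6, MRPL15 at 76.1 and MRPL37 at 71.2. The lowest were MRPL42 at 5.58 CPM per kb, MRPS23 at 6.22, MRPS11 at 6.4, MRPL50 at 7.64 and MRPL22 at 8.53. The low end depends on how length is taken, since these mRNAs are annotated with long transcripts (8251 bases for MRPL42). Per kilobase of coding sequence MRPL42 stood at 99 and MRPS23 at 61.3, and MRPS31 (19.1) and MRPL1 (19.8) became the lowest. MRPL33 (286) and MRPS24 (214) were among the 3 highest by coding length as well, with MRPS21 at 235. Of the reads of MRPS24, an unknown share may belong to its annotated read-through with URGCP, which overlaps 77% of its exon bases.

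The miR-105 library was set against both controls to ask which of these genes differed in the same direction from vector and from GFP. Counting a gene as higher when it was at least 1.5-fold above vector and at least 1.5-fold above GFP, 43 of the 73 members were higher, 58.9%, against 24% of all genes tested. None was lower by the same rule, against 24.7% of all genes. The median log2 difference from the 2 controls was 0.97 for the members and 0.01 for all genes. Against vector alone 43 members were higher (31% of all genes) and none lower (29.3%), and against GFP alone 61 were higher (28.3%) and none lower (31%). At any size, 61 members stood above both controls (43.4% of all genes did), 9 lay between them and 3 lay below both.

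MRPL3, a large-subunit protein close to the peptidyl transferase centre, stood furthest above the controls. Its levels were 53.3 CPM (vector), 53 (GFP), 195 (miR-105) and 95.3 (labelled MYC). The miR-105 value was thus 3.65-fold (3.29 to 4.07) above vector and 3.67-fold (3.35 to 4.03) above GFP, with the 2 controls almost equal.

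MRPL17, which lies at the polypeptide exit, followed with 32.2, 24.2, 98.3 and 34.6 CPM in the same order of libraries. It was 3.05-fold (2.66 to 3.52) and 4.06-fold (3.55 to 4.65) above vector and GFP in the miR-105 library. In the library labelled MYC it stayed close to the vector level, at 1.07-fold (0.919 to 1.26).

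MRPL39, a protein specific to mitochondrial ribosomes, had 14.6, 12, 41.7 and 20.3 CPM. MRPL12, the mobile stalk protein that also binds the mitochondrial RNA polymerase, had 50.3, 31.5, 123 and 62.5 CPM. For MRPL12 an annotated transcript, AC139530.2, overlaps 68.2% of the exon bases, and without a stated strand setting their reads cannot be told apart. MRPL19, of the large subunit, was the only member higher in GFP than in vector, at 40.6, 60.5, 143 and 74.6 CPM, and was still 2.37-fold (2.15 to 2.6) above GFP in the miR-105 library.

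The next of the 12 largest were MRPL35 (85.5 CPM in the miR-105 library; 2.93- and 3.01-fold), MRPS23 (62; 2.54- and 3.5-fold), MRPL1 of the L1 stalk (36.2; 2.38- and 3.69-fold) and MRPS30 (57.2; 2.67- and 2.87-fold). MRPL42 (81.1; 2.71- and 2.79-fold), MRPL58 (42; 2.31- and 2.98-fold) and MRPL47 (52.5; 2.25- and 3.03-fold) completed them. MRPL58 is a peptidyl-tRNA hydrolase that releases stalled chains. In all of these the miR-105 library was the highest of the 4. Named pseudogenes exist for MRPL3 (1), MRPL35 (4) and MRPL42 (4), so their reads are less certain.

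At the other end, 3 members lay below both controls without reaching 1.5-fold. MRPS14 had 22.6, 20.2, 16 and 41.7 CPM, which was 0.708-fold (0.553 to 0.901) of vector and 0.791-fold (0.624 to 0.996) of GFP in the miR-105 library. MRPL45, the protein that holds the ribosome at the inner membrane, had 71.7, 54.6, 52.4 and 112 CPM. MRPL10, the base of the stalk, had 64.1, 45.8, 45.6 and 75.5 CPM, equal in miR-105 and GFP. MRPS18C (1.51- and 1.82-fold) and MRPS31 (1.5- and 1.67-fold) fell just outside the threshold, which is read on log2(CPM + 0.5), and MRPL9 (1.53- and 2.03-fold) just inside it.

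**Figure D2:**
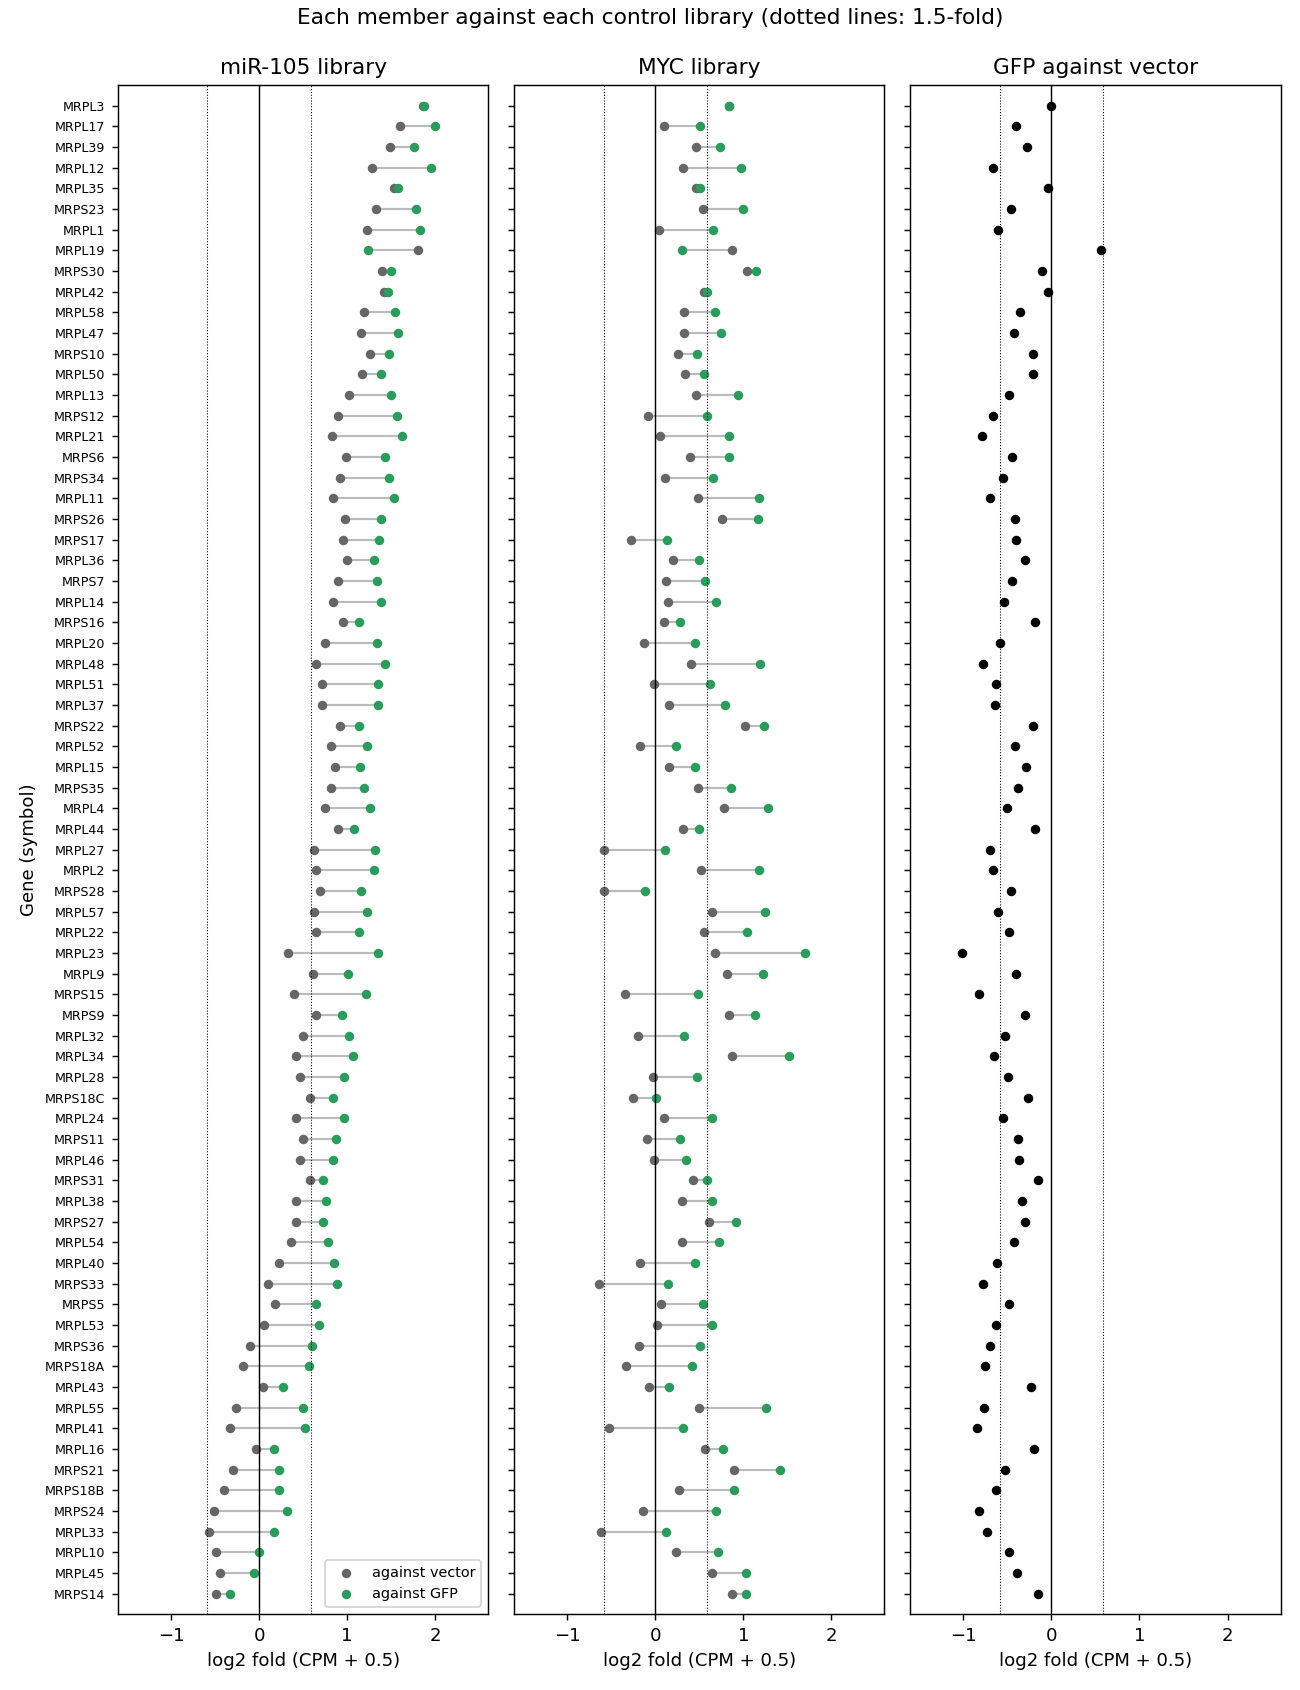
Log2 fold of each of the 73 genes, computed as log2(CPM + 0.5), in the miR-105 library (left) and the library labelled MYC (middle) against vector (grey) and GFP (green), and in GFP against vector (right); genes are ordered by the mean of the left panel, and dotted lines mark 1.5-fold. The 43 genes called higher have both dots right of the dotted line in the left panel, 14 do in the middle panel, and in the right panel only MRPL19 lies right of 0.

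The same library was also tested with vector and GFP taken as replicates of 1 control group, which compares these libraries and not conditions. With edgeR's quasi-likelihood test and Benjamini-Hochberg adjustment over all genes, 40 members were higher (19.4% of all genes) and none lower (19%), with 46 members at an unadjusted p under 0.05. DESeq2 called 18 higher (12.9% of all genes) and none lower (14%), with 35 at an unadjusted p under 0.05. The edgeR adjusted p was 4.5e-05 for MRPL3 and 5.25e-05 for MRPL17.

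The promoters of the members were read for the letters that these regulators are known to bind. RefSeq promoters (GRCh38.p14, 250 bases before the start) were matched for 64 of the 73 genes, and 4 motifs were searched on both strands. The ETS core CCGGAAG was in 22 promoters, 34.4% of the members, against 8.82% of all 27305 promoters and 15.6% of those of tested genes. The NRF1 motif GCGCATGC was in 9.38% against 2.81% and 4.69%. The YY1 motif AAGATGGC was in 7.81% against 1.37% and 1.77%. The E-box CACGTG, the letters bound by MYC with MAX, was in 7.81% against 6.49% and 8.89%. None of these motifs contains another.

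The following windows of 30 bases end before the RefSeq start site and show the matched letters in genes called higher. The GENCODE annotation used for lengths places some starts elsewhere. By it, the windows of MRPS22, MRPL17 and MRPL36 lie inside the gene, and those of MRPS23 and MRPS34 cross its start. They were chosen after the matches and the values were seen, for the highest members and for each of 3 motifs. Capitals mark the match, which reads CTTCCGG or GCCATCTT where it lies on the other strand. The windows lie at chr3:131502985-131503014 on the minus strand (MRPL3), chr17:57850045-57850074 minus (MRPS23), chr3:179604659-179604688 minus (MRPL47), chr16:1773135-1773164 minus (MRPS34), chr3:139343904-139343933 plus (MRPS22), chr11:6683365-6683394 minus (MRPL17), chr14:22829812-22829841 plus (MRPL52) and chr5:1799854-1799883 minus (MRPL36).
MRPL3: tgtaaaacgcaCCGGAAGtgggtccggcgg
MRPS23: ttacctggagcagccgCTTCCGGttccggt
MRPL47: ggcttgagacgCCGGAAGtgacgctatcgt
MRPS34: tCTTCCGGtgaCTTCCGGccggaccgctga
MRPS22: ggcCCGGAAGaCTTCCGGccctttccgcct
MRPL17: tccgagctaagGCGCATGCgttccctgaaa
MRPL52: aacccagattcAAGATGGCgacttcctgct
MRPL36: ccccccccgccGCCATCTTccttcctggca

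Within the windows shown, MRPS34 holds the ETS core 2 times on the other strand, and MRPS22 holds it once on each strand. The first 5 windows are of that motif, followed by NRF1 for MRPL17 and YY1 for MRPL52 and MRPL36. Members with and without each motif were set side by side in the miR-105 library, and a link between motif and level was not tested. The median log2 difference was 1.00 for the 22 members with the ETS core and 0.96 for the 42 without. It was 0.82 with and 0.99 without the NRF1 motif, 1.15 and 0.92 for YY1, and 0.89 and 0.99 for the E-box. The members with these motifs numbered only 6, 5 and 5. Over all tested genes with a promoter, the miR-105 median was 0.23 with and -0.00 without the ETS core. It was 0.19 and 0.03 for NRF1, 0.15 and 0.04 for YY1, and 0.08 and 0.03 for the E-box. In the library labelled MYC the 5 members with an E-box had a median of 0.47 and the 59 without one 0.44. A match is a run of letters and not a measured binding site.

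Fewer of these genes passed the threshold in the library labelled MYC. Of the 73 members, 14 (19.2%) were at least 1.5-fold above both controls, against 16.6% of all genes tested, a share near the background. None was lower, against 17.2% of all genes. The median log2 difference was 0.47 for the members and 0.04 for all genes, and 52 members stood above both controls at any size (41.6% of all genes did). Most of the members thus lay slightly above the controls without passing the threshold. The control matters here: 15 members were higher than vector alone (24.2% of all genes) and 2 lower (21.7%), while 44 were higher than GFP alone (23.1%) and none lower (23.6%).

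MRPL34, a large-subunit protein of bacterial origin, was the highest by mean difference, with 33.5, 21.2, 45 and 61.6 CPM in vector, GFP, miR-105 and the library labelled MYC. It was 1.84-fold (1.6 to 2.11) above vector and 2.91-fold (2.53 to 3.35) above GFP. MRPL23, next to the exit of the tunnel, had 42.9, 20.9, 54 and 69.1 CPM, or 1.61-fold (1.42 to 1.82) and 3.3-fold (2.88 to 3.79). Its controls stood further apart than those of any other member, so its mean rests largely on the low GFP value.

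MRPS21, of the small subunit, had 518 reads in vector, 537 in GFP, 290 in miR-105 and, in that labelled MYC, 1104, and its CPM in the first 3 was 56, 38.8 and 45.5. In miR-105 it lay between the controls, while the library labelled MYC was 1.87-fold (1.68 to 2.08) above vector and 2.7-fold (2.43 to 3) above GFP. There are 8 named pseudogenes of MRPS21, so this value is uncertain. MRPS22, a small-subunit protein specific to mitochondria, had 21.5, 18.5, 41.1 and 44.3 CPM, and MRPS30 had 21.4, 19.9, 57.2 and 44.7. These 2 were the only members at least 2-fold above both controls in the library labelled MYC, against 9.03% of all genes.

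The others of the 12 largest were MRPL4 (93 CPM in the library labelled MYC; 1.72- and 2.45-fold), which lines the exit tunnel, MRPL9 (74.4; 1.77- and 2.35-fold), MRPS9 (56; 1.8- and 2.22-fold), MRPS26 (53; 1.7- and 2.27-fold), MRPS14 (41.7; 1.85- and 2.06-fold), MRPL57 (40.2; 1.58- and 2.42-fold) and MRPL45 (112; 1.57- and 2.06-fold). MRPL3 (95.3; 1.79- and 1.8-fold) and MRPS27 (157; 1.53- and 1.89-fold) completed the 14. Other annotated genes overlap 46.8% of the exon bases of MRPL9 and 26.1% of those of MRPL4, and MRPL57 has 5 named pseudogenes. MRPS33 (0.64-fold) and MRPL33 (0.652-fold) were lower than vector by 1.5-fold or more and close to GFP (1.1- and 1.09-fold).

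With the controls taken as 1 group, edgeR's quasi-likelihood test called 10 members higher in the library labelled MYC (10.6% of all genes) and none lower (11.2%), with 20 at an unadjusted p under 0.05. DESeq2 called none in either direction, against 5.63% of all genes higher and 8.43% lower. By DESeq2 10 members had an unadjusted p under 0.05, and the smallest adjusted p among the members was 0.071. The smallest edgeR adjusted p was 0.012, that of MRPS21.

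Set directly against each other, which needs no control, the miR-105 library was at least 1.5-fold above the library labelled MYC for 33 members, 45.2%, against 30.3% of all genes. It was lower for 7 members, 9.59%, against 29.3%. The median log2 difference was 0.49 for the members and 0.05 for all genes, and 57 members were above at any size (52.1% of all genes were). This comparison depends on the scaling: with library totals alone, 22 members were higher (24.2% of all genes) and 9 lower (35.3%), with medians of 0.28 for the members and -0.15 for all genes. MRPL17 stood 2.84-fold higher in miR-105 than in the library labelled MYC, and MRPL1 2.3-fold higher. The 7 members in the other direction were MRPS14 (0.384-fold in miR-105 relative to the library labelled MYC), MRPS21 (0.435-fold), MRPL45 (0.466-fold), MRPL55 (0.581-fold), MRPL10 (0.605-fold), MRPS18B (0.623-fold) and MRPL16 (0.657-fold). The last was named after its value was seen.

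**Figure D3:**
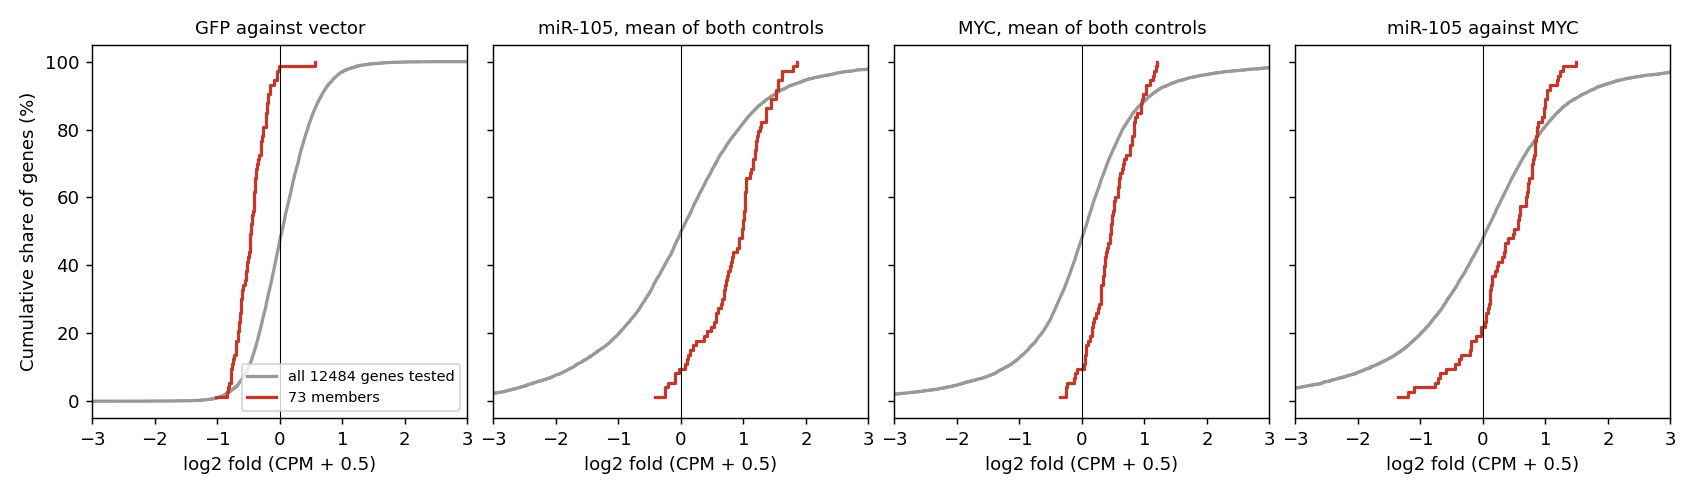
Cumulative share of genes (%) against the log2 fold, computed as log2(CPM + 0.5), for the 73 members (red) and all 12484 genes tested (grey) in 4 comparisons, with the controls averaged where both are used. At the median, the red curve lies left of the grey one for GFP against vector (-0.46 and 0.03). In the other panels it lies right of the grey one at the median, furthest in miR-105 (0.97 and 0.01). The curves cross towards the tails, where all genes reach further in both directions.

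The counts depend on the threshold. At 2-fold, 16 members were higher in miR-105 (14.7% of all genes) and none lower (16.6%), and in the library labelled MYC 2 were higher (9.03%) and none lower (10.4%). GFP against vector gave 1 lower at 2-fold, MRPL23 (1.03%), and none higher (3.06%), and miR-105 against the library labelled MYC gave 8 higher (19%) and 3 lower (19.8%). With a ratio 25% above 1 taken as enough, in either direction, 56 members were higher in miR-105 (32.1%) and 1 lower, MRPS14 (31.9%), and in the library labelled MYC 31 were higher (26.2%) and none lower (25.3%). By that rule GFP against vector gave 53 lower (20.5%) and 1 higher, MRPL19 (27.4%), and miR-105 against the library labelled MYC 42 higher (39.7%) and 10 lower (37.1%). For miR-105 against both controls, the members' share of higher genes stood above that of all genes at each threshold. For GFP, the share of lower members stood above it at the lower thresholds and was 1 gene at 2-fold. Against the library labelled MYC, the miR-105 share was above that of all genes at 1.5-fold and below it at 2-fold. For the library labelled MYC against both controls, it was above at the lowest threshold, near at 1.5-fold and below at 2-fold.

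The 2 controls themselves differed in these genes. In the GFP library 72 of the 73 members were below their vector level (47.1% of all genes were), and 24 were at least 1.5-fold lower, 32.9%, against 6.99% of all genes. No member was 1.5-fold higher, against 13% of all genes. The median log2 difference was -0.46 for the members and 0.03 for all genes. MRPL23 differed most, at 0.488-fold (0.418 to 0.569) of the vector level. MRPL41 followed with 71.8 CPM in vector and 39.7 in GFP, MRPS24 with 135 and 76.1, MRPS15 with 72.9 and 41.1, MRPL21 with 26.4 and 15.1, and MRPS33 with 58.4 and 33.8. A fold against GFP is therefore larger than one against vector for nearly every member: the median log2 difference was 0.65 from vector and 1.19 from GFP for miR-105, and 0.27 and 0.65 for the library labelled MYC.

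The difference between GFP and vector moved with transcript length across all genes. Over all genes tested with a known length (97.2%), its median was -0.44 for transcripts of at most 1000 bases, -0.27 for 1000 to 2000 bases, -0.01 for 2000 to 4000 and 0.36 above 4000. The members are short, with a median transcript of 1333 bases against 3011 for tested genes. In the same length classes the members' medians were -0.58 (17 genes), -0.48 (44), -0.21 (10) and -0.25 (2), below all genes in each class. The part of length in the difference between the controls was not tested. For miR-105 and the library labelled MYC, the medians of all genes moved little with length, from 0.00 to 0.01 and from 0.02 to 0.12. Among genes at a mean of 10 to 200 CPM, they fell with length in miR-105, from 0.33 through 0.19 and 0.12 to 0.07, and in the library labelled MYC from 0.12 to 0.03. In the first 3 classes the members stood at 0.84, 0.99 and 0.98 in miR-105 and at 0.37, 0.47 and 0.54 in the library labelled MYC.

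**Figure D4:**
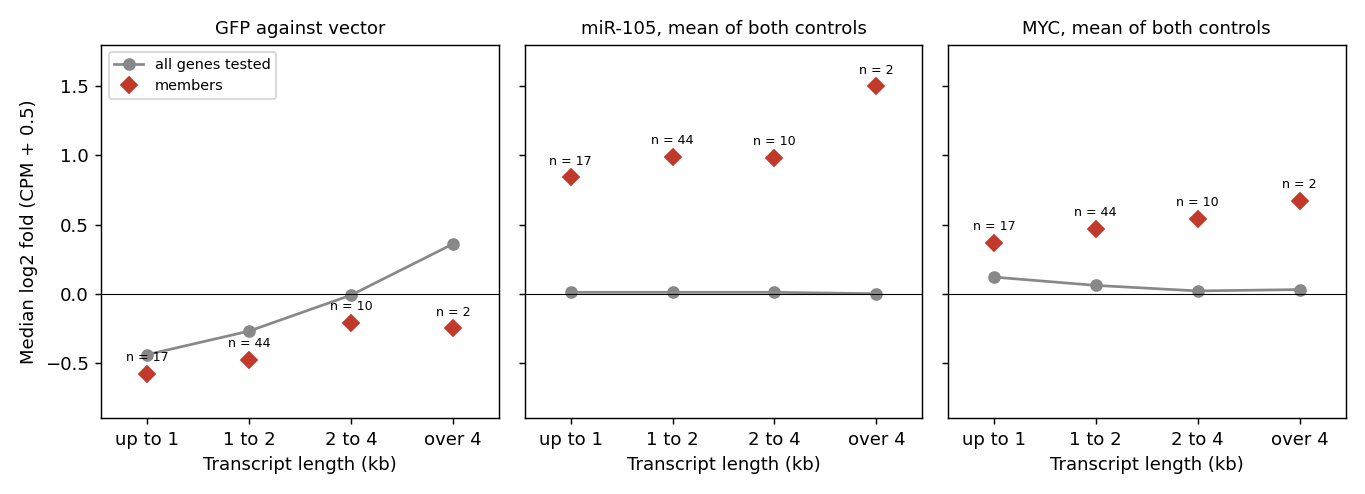
Median log2 fold, computed as log2(CPM + 0.5), in 4 classes of transcript length (kb) for all genes tested (grey line) and for the members (red diamonds, with their number), in GFP against vector, in miR-105 and the library labelled MYC against the mean of both controls. The grey line climbs from -0.44 to 0.36 in the first panel and stays between 0.00 and 0.12 in the others, while the members lie below it in the first and above it in the other panels.

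The 2 subunits were also counted apart. In miR-105, 30 of 48 large-subunit genes and 13 of 24 small-subunit genes were higher than both controls by 1.5-fold, against 24% of all genes, with median log2 differences of 0.99 and 0.86. In the library labelled MYC, 8 and 6 were higher, against 16.6% of all genes, with medians of 0.47 and 0.37, and the large-subunit share was near that of all genes. The summed level of the small subunit relative to the large was 0.638 with vector, 0.623 with GFP, 0.553 with miR-105 and 0.621 in that labelled MYC. Of the 45 members with a bacterial homologue, 27 were higher in miR-105 (median 0.97), and of the 27 mitochondria-specific members 16 were (median 1.00). MRPS36, the member kept apart, had 22.6, 13.7, 21 and 19.8 CPM and was called in neither library.

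The structural groups are small, and their calls are to be read against those of all genes. Of all genes tested, 24% were called higher with miR-105, and for the library labelled MYC 16.6% were. Among structural groups, the 3 stalk genes split. MRPL12 and MRPL11, the docking site of translation factors, were higher in miR-105, MRPL11 with 28.3, 17.3, 51 and 39.8 CPM, whereas MRPL10 was not. At the polypeptide exit, MRPL17, MRPL47 and MRPL22 were higher in miR-105, MRPL22 at 1.58-fold (1.31 to 1.92) above vector. MRPL23 and MRPL45 were higher in the library labelled MYC, and MRPL24 (43.5, 29.7, 58.2 and 46.7 CPM) in neither.

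The central protuberance is a part of the large subunit. Of the 7 members placed there, 3 were higher in miR-105 (24% of all genes were). They were MRPL48 (17.8, 10.2, 28.2 and 23.9 CPM), MRPL52 (27, 20.2, 48 and 24) and MRPL27 (36.3, 22.2, 56.3 and 24.1). MRPL38, MRPL40, MRPL46 and MRPL55 passed in neither library. MRPL55 had the lowest miR-105 level of all members, 15.4 CPM, against 18.6 in vector, 10.8 in GFP and 26.5 in the library labelled MYC.

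The MRPS18 paralogs encode relatives of the bacterial S18 protein, and none of the 3 was called. Of all genes tested, 24% were called higher and 24.7% lower with miR-105. For the library labelled MYC these shares were 16.6% and 17.2%. With only 3 genes, the absence of calls does not set the paralogs apart from all genes. MRPS18A had 29.8, 17.6, 26.2 and 23.6 CPM, MRPS18B 67.8, 43.8, 51.1 and 82.1, and MRPS18C 17.1, 14.2, 25.7 and 14.2. By CPM, the highest library was a different one for each paralog: vector for MRPS18A, the library labelled MYC for MRPS18B and miR-105 for MRPS18C. For MRPS18A, miR-105 was 0.878-fold (0.72 to 1.07) of vector, so these 2 libraries are not set apart beyond counting error. ABRAXAS1 overlaps 78.9% of the exon bases of MRPS18C, and RSPH9 56.9% of those of MRPS18A.

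The other genes of mitochondrial gene expression were read from lists, by the same count. The shares of all genes to read them against are 24% higher and 24.7% lower in miR-105, and 16.6% and 17.2% in the library labelled MYC. All 5 ribosomal proteins under other symbols stood above both controls in miR-105 (median 0.74), but only DAP3, a small-subunit GTP-binding protein, was called, at 78.2, 64.7, 119 and 122 CPM. It was called in both libraries. Of 21 assembly factors, 9 were higher and 2 lower in miR-105, and 4 were higher in the library labelled MYC, the last near the share of all genes. C1QBP, a matrix protein needed for mitochondrial translation, had 81.7, 64.9, 269 and 230 CPM. MPV17L2 reached 31.7 CPM in miR-105 (2.59- and 4.14-fold). MRM2, a methyltransferase of the large ribosomal RNA, reached 79.8 (2.6- and 2.72-fold). The lower ones were YBEY (14.1, 10.4, 4.71 and 12.8 CPM) and the GTPase NOA1 (85.1, 78.6, 43.1 and 120 CPM). In the library labelled MYC, DDX28 (16 CPM; 1.54- and 2.09-fold) and RPUSD4 (94.1; 1.51- and 1.87-fold) followed C1QBP.

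Of 13 genes of mitochondrial transcription and RNA processing, 10 were higher in miR-105 (median 0.97), against 24% of all genes, and 3 in the library labelled MYC (median 0.49), against 16.6%. PNPT1, the polynucleotide phosphorylase of mitochondria, had 20.5, 29.7, 102 and 39.7 CPM. TFB2M, which melts the promoter for the mitochondrial RNA polymerase, had 23.6, 23.2, 71.2 and 55.5 CPM. TRMT10C, a subunit of mitochondrial RNase P, reached 70.4 CPM in miR-105 (2.54- and 3.26-fold).

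Of 15 mitochondrial tRNA synthetases, 9 were higher in miR-105 (median 0.84), among them MARS2 (5.3, 7.44, 39.7 and 27.5 CPM) and EARS2 (23.4, 29.8, 93.6 and 44.5). In the library labelled MYC 4 were higher and VARS2 was lower (87.2, 70.6, 82 and 38.7 CPM). Of 15 translation factors, 4 were higher in miR-105 (median 0.43), and 3 were in the library labelled MYC (median 0.46), both near the shares of all genes, 24% and 16.6%. The elongation factor GFM1 had 34.5, 39.7, 124 and 50.9 CPM, and SLIRP, the partner of LRPPRC in holding mitochondrial mRNA, had 16.4, 9.03, 38.4 and 25.5. The 3 called in the library labelled MYC were SLIRP, the release factor MTRF1 (12, 12.1, 9.72 and 26.8 CPM) and LRPPRC (183, 223, 307 and 402).

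Of 10 transcriptional regulators, 6 were higher and 1 lower in miR-105, and 2 were higher in the library labelled MYC. PPRC1, a coactivator of the PGC-1 family, had 53.2, 59.2, 166 and 65.3 CPM, and PPARGC1B 23.2, 29.8, 62.9 and 62.4. PPARGC1A, the coactivator PGC-1 alpha, was the lower one, at 4.11, 8.81, 0.314 and 13.3 CPM. MYC itself was among the higher genes in miR-105, with the values given above. For the factors whose motifs were searched, NRF1 had 19.6, 24.9, 42.7 and 13.9 CPM, and YY1 58.3, 73.2, 116 and 93.5. GABPA, the subunit of GABP that binds DNA, had 37.6, 45.6, 47.1 and 48.7 CPM and was called in neither library. Of its partner subunits, GABPB1 had 16.8, 20.9, 33.1 and 15.9 CPM, and GABPB2 had 7.35, 7.3, 6.9 and 10.2 CPM and was called in neither library. These 5 were named for their motifs.

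For comparison, 79 genes of the cytosolic ribosome had a median of -0.44 in miR-105, with 5 called higher (24% of all genes) and 2 lower (24.7%). Their value rests on the control: the miR-105 median was -0.89 against vector and -0.01 against GFP, and the GFP library itself had a median of -0.88 against vector. In the library labelled MYC their median was 0.44, with 3 called higher (16.6% of all genes) and 2 lower (17.2%). For 75 nuclear genes of the respiratory chain and ATP synthase, the medians were 0.38 in miR-105, 0.48 in the library labelled MYC and -0.50 in GFP against vector. Of these, 13 genes were higher in each of the first 2 libraries, fewer than the share of all genes in miR-105 (24%) and near it in the library labelled MYC (16.6%). The miR-105 median of the mitochondrial ribosomal genes thus lay above both lists. In the library labelled MYC, their median over both controls lay beside both lists, but for the cytosolic list this too rests on the control. Against vector, the median in that library was 0.27 for the members and -0.00 for the cytosolic list. Against GFP, it was 0.65 for the members and 0.90 for the cytosolic list. These medians are descriptions, and no test of the difference was run.

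**Figure D5:**
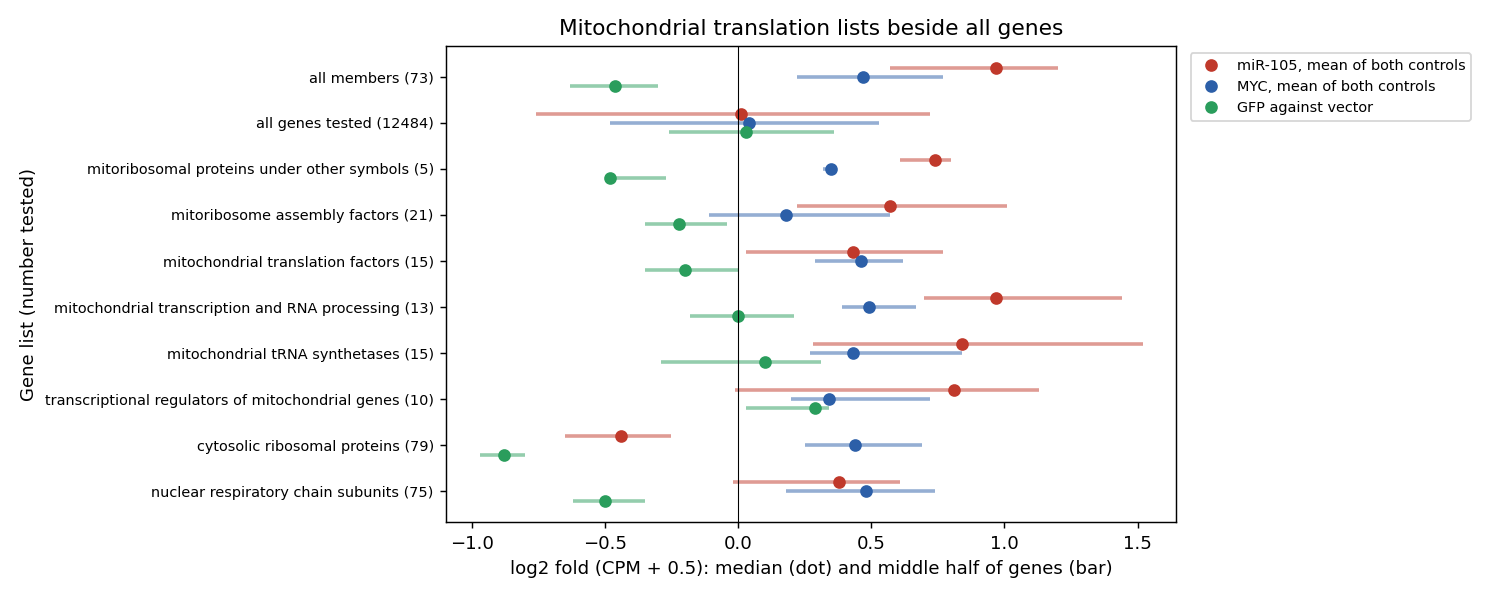
Median (dot) and middle part (bar, lower to upper quartile) of the log2 fold, computed as log2(CPM + 0.5), for the members, all genes tested and 8 gene lists, in miR-105 (red) and the library labelled MYC (blue) against the mean of both controls, and in GFP against vector (green). Red dots lie at 0.97 for the members and for transcription and RNA processing, and at -0.44 for cytosolic ribosomal proteins, whereas blue dots stay between 0.04 and 0.49.

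Of the members, 17 start head to head with another coding gene within 1000 bases, and 14 of these partners are in the table. MRPL46 and MRPS11, which face each other with 34 bases between them, stood close together in every library, at 16.5 and 22.6 CPM in vector, 12.7 and 17.3 in GFP, 23.1 and 32.2 in miR-105, and 16.4 and 21.1 in that labelled MYC. Other pairs differed in size or direction. MRPL57 had a mean log2 difference of 0.92 in miR-105, while its partner SKA3, a mitotic spindle gene, had 5.61, from 0.973 CPM in vector to 72.3. MRPL27 had 0.97 and its partner EME1 2.81, and MRPL32 and the proteasome gene PSMA2 had 0.76 and 0.67. MRPL21 had 1.23 and its partner IGHMBP2 -0.13, and MRPS34 had 1.2 and EME2 -0.97. These pairs were chosen after their values were seen.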

How the data were processed

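Per the submitters' processing notes, reads were processed with TopHat2 and edgeR on hg19. No version, counter, annotation or strand setting is given in the sources used here. The authors deposited a depth-adjusted signal with the form of edgeR pseudo-counts. Inverting it (common dispersion 0.0553, vector and GFP as 1 group) gave whole reads within a relative 1e-05 for 99.96% of the vector and GFP values, 7 missing by at most 1.298e-05, and for 100% of the others. On data simulated with the same transformation, 100% (rounded) were returned, which tests the inversion and not how the deposited values were made. Of 18859 lines, 19 exact repeats were dropped. CPM used TMM factors (1.01 vector, 0.987 GFP, 0.929 miR-105, 1.08 MYC), and log2 values add 0.5 CPM, which understates changes of low genes. Ratio intervals are Clopper-Pearson, and without molecular identifiers reads are no independent count of molecules. No test was the main result. Named genes were those called (at most 12 per library and direction by mean log2 difference), the 6 with the largest GFP difference, the 5 highest and lowest per length, 4 structural groups, MRPS36, and at most 3 called genes per list and direction. A list gene that this rule names is not reported here. Members and lists were chosen with earlier results of these data known. Lengths, overlaps and pseudogenes come from GENCODE 29 on GRCh38. Length is the median of the principal transcripts, a choice made after a first value for MRPL42 was seen. Tools were R 4.3.3, edgeR 4.0.16, DESeq2 1.42.0, Python 3.11.15, numpy 2.4.6, pandas 2.3.3 and scipy 1.17.1.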

Additional observations from a re-analysis of the deposited data

How the results depend on the processing

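No paired analysis was possible because each construct had 1 library. The counts of called members below are to be read against the shares of all genes given for them in the Results. No value of a named member in a library where it was called changed sign under any alternative run, nor did any median over the members. Medians over all genes, which lie near 0, did. Another fold threshold moved the counts by construction: at 2-fold, 16 members were higher in miR-105, 2 in the library labelled MYC (MYC below) and 8 in miR-105 against it, with 3 lower there and 1 lower in GFP. At a 25% difference, 1 was lower in miR-105, 31 were higher in MYC, and 1 was higher and 53 lower in GFP. With vector alone as control, the medians were 0.65 in miR-105 (large subunit 0.68) and 0.27 in MYC (large 0.31, small 0.19), and 2 members were lower in MYC. With GFP alone, they were 1.19 (small 1.13, large 1.2 at 1 decimal) and 0.65 (large 0.67), and 44 members were higher in MYC. DESeq2 called 18 members higher in miR-105 and 0 in MYC, where 10 had an unadjusted p under 0.05 and edgeR called 10. With library totals alone the MYC median was 0.58, while the median of all genes moved to 0.14 in MYC and -0.09 in miR-105, and miR-105 against MYC fell from 33 to 22 members higher and from a median of 0.49 to 0.28. The GFP against vector median was -0.53 with DESeq2 size factors and with the deposited values as they stand; the cause was not tested. The other alternatives, the filter (none, or 5 CPM) and the pseudocount (0.1 or 2), left these counts within 1.5 times and the medians within their order-statistic intervals. Of 686 recomputed values for the 49 named members, 571 stayed within counting error and 115 did not. Among values of members in a library where they were not called, 22 changed sign, 21 of them with 1 control alone, in 16 members. Some of these members were called in the other library, such as MRPL27 and MRPS21. Per coding length, added after the data were seen, the order of levels changed as given above. With 1 library per construct, depth limits only the counting error.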
